A study of Homo sapiens with 4 samples.

Results

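Nucleotide excision repair was followed through 9 genes, XPA, ERCC1, ERCC2, ERCC3, ERCC4, ERCC5, ERCC6, ERCC8 and RAD23B, which were taken by gene symbol from the 58219 gene identifiers of the deposited table. All 9 were found and all 9 passed the filter on low values, among 16132 genes tested. The cells were GBM8401, an established human malignant glioma line, and a derivative of it made resistant to temozolomide (TMZ), the methylating drug given for glioblastoma. The parental group held 2 libraries of GBM8401 with no agent named in the labels, and the resistant group held 2 libraries of cells kept in medium with 200 µM TMZ for 140 days. Both lines carry the label of brain tissue and glioblastoma multiforme, and all 4 libraries were made from total RNA.

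Some features of the design bear on every value that follows. The resistant group comes from 1 derived line, and whether it was cloned, or held TMZ at harvest, is not stated. No vehicle-treated line passaged for the same time is among the 4 libraries, so the drug, the time in culture and the selection of cells cannot be told apart. The labels call the 2 libraries of a group biological replicates but do not tie them to separate cultures or days, so the p-values measure only the spread between these samples. Because the samples are bulk RNA, fewer cells with a transcript and less of it per cell cannot be told apart.

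Nucleotide excision repair removes lesions that distort the DNA helix, such as ultraviolet photoproducts and the adducts of platinum drugs, by cutting out a short stretch of the damaged strand and copying the gap anew. Damage is found either anywhere in the genome, by the XPC–RAD23B sensor aided by DDB2, or where it stalls RNA polymerase, through ERCC6 and ERCC8. Both routes pass the site to the transcription and repair factor TFIIH, which holds the helicases ERCC2 and ERCC3, then to XPA, and end in a pair of cuts by ERCC5 and by the ERCC1–ERCC4 nuclease. The methylated bases that TMZ leaves are small and are known mainly as substrates of direct reversal, base excision and mismatch repair.

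Sequences before the transcription starts of members that changed are shown for what these promoters hold. RefSeq (build GRCh38.p14) gave 14 windows of 250 bases for the 9 members, all of which matched. Each sequence below reads 5′ to 3′ on the strand of its gene and stops at the first base of any annotated exon, with matches to the searched motifs in capitals, here the SP1 box GGGCGG or its complement CCGCCC.
XPA, chr9:97697358-97697590, minus strand: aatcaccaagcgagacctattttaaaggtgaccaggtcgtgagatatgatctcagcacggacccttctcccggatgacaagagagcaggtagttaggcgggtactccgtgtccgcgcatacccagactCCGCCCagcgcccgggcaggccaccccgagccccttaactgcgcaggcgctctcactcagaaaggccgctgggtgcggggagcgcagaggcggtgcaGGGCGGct
ERCC6, first start, chr10:49539122-49539371, minus strand: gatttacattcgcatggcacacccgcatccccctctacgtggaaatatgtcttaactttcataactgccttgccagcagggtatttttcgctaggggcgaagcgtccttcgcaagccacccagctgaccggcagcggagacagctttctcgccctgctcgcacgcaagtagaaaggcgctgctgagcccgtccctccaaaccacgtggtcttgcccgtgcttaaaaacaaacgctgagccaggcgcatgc
ERCC6, second start, chr10:49539539-49539788, minus strand: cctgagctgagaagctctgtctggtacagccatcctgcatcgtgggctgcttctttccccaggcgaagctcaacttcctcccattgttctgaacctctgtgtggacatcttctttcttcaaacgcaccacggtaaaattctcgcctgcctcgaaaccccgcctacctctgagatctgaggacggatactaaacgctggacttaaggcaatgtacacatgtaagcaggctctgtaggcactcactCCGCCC
ERCC3, chr2:127294177-127294394, minus strand: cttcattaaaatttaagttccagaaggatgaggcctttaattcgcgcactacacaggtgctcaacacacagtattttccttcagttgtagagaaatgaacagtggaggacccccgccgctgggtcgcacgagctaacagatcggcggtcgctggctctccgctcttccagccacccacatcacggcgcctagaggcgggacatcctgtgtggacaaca
RAD23B, first start, chr9:107283029-107283136, plus strand: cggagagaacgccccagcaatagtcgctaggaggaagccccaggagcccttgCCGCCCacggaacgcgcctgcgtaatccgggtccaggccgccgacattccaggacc

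The letters searched, on both strands, were GGGCGG (SP1), CCAAT (the CCAAT box), CCGGAAGT (ETS factors), TTTGGCGC and TTTCCCGC (E2F), TGACGTCA (the cyclic AMP response element) and, by their names alone, the NRF1 motif and the p53 half-site. XPA, which rose, held 2 SP1 boxes, 122 and 25 bases before its start. ERCC6, the member with the smallest adjusted p, held 1 SP1 box at the last 6 bases of its second window and no match in its first. RAD23B, which fell, held 5 SP1 boxes and 1 CCAAT box over its whole first window, of which 1 SP1 box lies in the stretch shown; its other 2 windows had no match and are not shown. ERCC3, which fell, held 1 ETS match, 14 bases before the start and past the first base of an annotated exon, so outside the stretch shown. ERCC5, which rose, held 1 SP1 box 231 bases before its start. The first base of the ERCC5 window lies in an annotated exon, so no stretch of it is shown. Of the members with no call, ERCC1 held 2 SP1 and 3 CCAAT boxes in 1 of its 3 windows, ERCC2 held 1 SP1 box and 3 CCAAT boxes, ERCC8 held 2 CCAAT boxes and ERCC4 had no match.

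Such letters are common in promoters, and members that rose and members that fell both held SP1 boxes. Among 34943 RefSeq windows of the same length, 42.5% held GGGCGG, 32.0% CCAAT, 3.39% CCGGAAGT, 0.547% TTTGGCGC, 1.39% TTTCCCGC, 1.63% TGACGTCA, 1.02% the NRF1 motif and 5.58% a p53 half-site. None of the 14 member windows held the E2F, cyclic AMP, NRF1 or p53 letters, which says only that these letters are absent from these windows.

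Of the 9 members, ERCC5, ERCC6 and XPA were higher in the resistant cells, ERCC3 and RAD23B were lower, and ERCC1, ERCC2, ERCC4 and ERCC8 did not pass the test. The changes were modest, from 1.26-fold lower for ERCC3 to 1.80-fold higher for ERCC5. Calls here are adjusted p-values under 0.05 from limma on log2(deposited value + 1), two-sided and adjusted by the Benjamini-Hochberg method over all genes tested, with n = 2 libraries a group and errors given as SE. Of all genes tested, 37.1% passed that threshold, 16.2% higher and 20.9% lower. The members' median log2 fold change was 0.11, beside -0.018 for all genes tested. With so many genes changed between the lines, 3 of 9 higher and 2 of 9 lower are given as counts, and nothing particular to the set is read from them. Of the 5 calls, those of ERCC5 and ERCC6 held in each of the 14 alternatives run, and only these 2 remained without resistant replicate 1.

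**Figure D1:**
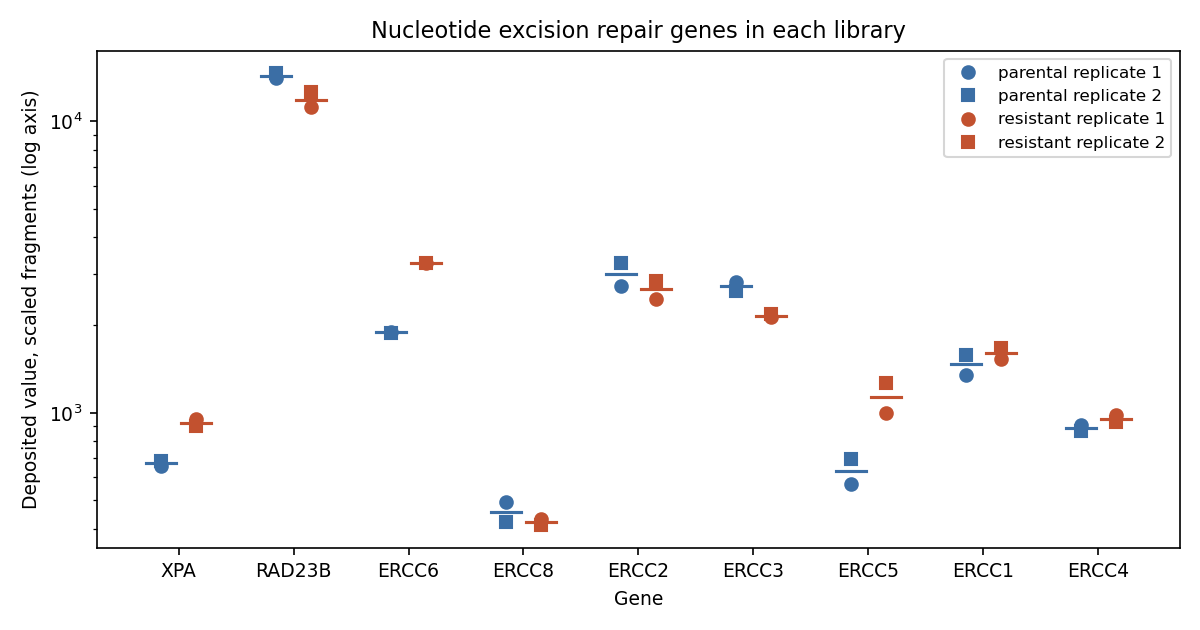
Deposited value (scaled fragments, log axis) of each of the 9 genes in each library, with circles for replicate 1, squares for replicate 2, parental libraries in blue, resistant libraries in red and a line at each group mean. The resistant points lie above the parental points for XPA, ERCC6, ERCC5 and ERCC4 and below them for RAD23B and ERCC3, and the groups overlap for ERCC8, ERCC2 and ERCC1.

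Whether the libraries of the groups overlapped can be read without any model. The groups did not overlap for 6 of the 9 members, where 68.6% of all genes tested did not. XPA, ERCC4, ERCC5 and ERCC6 had both resistant libraries above both parental ones, where 32.2% of all genes tested did. ERCC3 and RAD23B had both below, where 36.4% of all genes did. ERCC1, ERCC2 and ERCC8 overlapped.

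Global recognition starts with XPC, the protein that senses the distorted helix, and RAD23B, which stabilises it. XPC and RAD23B went in opposite directions. RAD23B (chr9:107283137-107332194 of GRCh38, plus strand) had deposited values of 14046 and 14622 in parental replicates 1 and 2, and of 11195 and 12586 in resistant replicates 1 and 2, the order kept for each gene below. It was the most abundant member, also per kilobase of exon, and its resistant libraries lay below its parental ones. The means were 14334 ± 408 in parental and 11891 ± 983 in resistant cells (SD, n = 2). The fitted log2 fold change was -0.27 ± 0.08, adjusted p = 0.026. The RAD23B call was lost without parental replicate 2 (adjusted p = 0.0932) and without resistant replicate 1 (0.188), with libraries scaled to equal totals (0.0642) and without the trend and robust steps of limma's moderation together (0.145), over a range of 4.78e-05 to 0.188 across its alternatives; its direction did not turn in any of them.

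XPC, which is outside the 9 members, read 1551 and 1652 in parental cells and rose to 2609 and 2702. It was 1.66-fold higher, with a log2 fold change of 0.73 ± 0.08, adjusted p = 3.87e-04, and was called in each of its alternatives. DDB2, which finds ultraviolet lesions in chromatin and is also known as a p53 target, stood at 1416 and 1554 against 2154 and 2098, a log2 fold change of 0.52 ± 0.08, adjusted p = 0.00218, and was likewise called in each. XPC overlaps LSM3, a splicing factor gene on the other strand, whose values were 534 and 577 against 436 and 465. DDB1, the adaptor that joins DDB2 to the CUL4 ubiquitin ligase, gave no call (log2 fold change 0.11 ± 0.07, adjusted p = 0.235). Its resistant libraries both lay above its parental ones, and with equal totals limma called it higher (0.20, adjusted p = 0.0404). Of the 8 genes listed for global recognition, 2 were higher (XPC and DDB2), 1 was lower (RAD23B) and 5 were not called, with a median log2 fold change of 0.020. The shares to set beside this step and those below, over all genes tested, were 16.2% higher and 20.9% lower, with a median of -0.018.

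Transcription-coupled repair depends on ERCC6 (also known as CSB), a DNA translocase that binds stalled RNA polymerase, and on ERCC8 (CSA), the substrate receptor of a ubiquitin ligase that it recruits. The genes of this pair differed: ERCC6 rose and ERCC8 gave no call. ERCC6 (chr10:49455368-49539538, minus strand) read 1893 and 1883 in parental cells, against 3273 and 3278 in resistant cells. The libraries of a group lay closer together for ERCC6 than for any other member, with group values of 1888 ± 6.72 in parental and 3275 ± 3.89 in resistant cells (SD, n = 2). This was a 1.73-fold increase, or a log2 change of 0.79 ± 0.07, adjusted p = 2.02e-04. In GENCODE 29 the gene ERCC6 also contains the transcripts of the domesticated transposase PGBD3 and the fusion of both, so its value covers these too.

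ERCC8 (chr5:60873831-60945073, minus strand) read 495 and 420.2 in parental cells and 432 and 411 in resistant cells. Its groups overlapped, and its log2 fold change was -0.11 ± 0.12, adjusted p = 0.518. Without parental replicate 1 its sign turned, to 0.0033, so no direction is given. The other genes listed for this route were called in both directions. XAB2, which binds XPA and also acts in splicing, was higher, at 1824 and 2176 against 2544 and 2659.9 (log2 fold change 0.38 ± 0.10, adjusted p = 0.0169). USP7, the deubiquitinase that protects ERCC6, was lower, at 8976 and 8081 against 7027 and 6614 (log2 fold change -0.32 ± 0.08, adjusted p = 0.0142).

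Neither of these calls held in every alternative. XAB2 lost its call without parental replicate 1 (adjusted p = 0.0705) or resistant replicate 2 (0.0828) and without the trend and robust steps (0.106, the top of a range from 1.42e-07). USP7 lost its call without parental replicate 1 (0.0746) or resistant replicate 2 (0.0764), with equal totals (0.0666) and without the trend and robust steps (0.105, the top of a range from 2.46e-06). Of 9 genes listed for transcription-coupled repair, 8 were tested, and 2 were higher, 1 lower and 5 not called, with a median log2 fold change of -0.071.

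TFIIH opens the helix around the lesion, and its helicase subunits ERCC2 (XPD) and ERCC3 (XPB) also serve in transcription, where ERCC3 drives promoter opening. ERCC3 fell, and ERCC2 did not pass the test. ERCC3 (chr2:127257290-127294176, minus strand) read 2817 and 2626 in parental cells, and the resistant libraries read 2124 and 2183. Both resistant libraries lay below both parental ones, with means of 2722 ± 135 in parental and 2154 ± 42.4 in resistant cells (SD, n = 2). This was 1.26-fold lower, or a log2 change of -0.34 ± 0.08, adjusted p = 0.0113. The ERCC3 call was lost without resistant replicate 1 (adjusted p = 0.0777) and without the trend and robust steps (0.0757), over a range of 4.09e-06 to 0.0777.

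ERCC2 (chr19:45349837-45370918, minus strand) gave 2719 and 3269 for the parental pair of libraries and 2464 and 2835 for the resistant pair. In each group replicate 2 was the higher library, and the groups overlapped. The log2 fold change of ERCC2 was -0.17 ± 0.11, adjusted p = 0.258. Of the 10 TFIIH genes listed, 9 were tested, ERCC3 was lower and the other 8 were not called, with a median log2 fold change of -0.12. GTF2H4 was not tested: it was at 0 in 3 libraries and at 0.956, the worth of about 1 fragment, in parental replicate 2. STK19, listed for transcription-coupled repair, was at 0 in all 4. Both genes lie on chromosome 6 between 29 and 34 Mb, where 64.4% of 180 coding genes were at 0 in every library against 13.4% of coding genes elsewhere, so these zeros are not read as absence of the transcript. GTF2H2, with values of 8.49 to 24.9, has near-identical copies in the genome between which fragments may have been split.

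XPA, which checks the opened site and gathers the other factors, rose. XPA (chr9:97674909-97697357, minus strand) gave 659 and 682 in parental cells, while resistant cells gave 949.6 and 901. The libraries of each group lay close together and the groups were apart, at 670.3 ± 16.1 in parental and 925 ± 34.3 in resistant cells (SD, n = 2). The log2 fold change was 0.46 ± 0.09, adjusted p = 0.00592, or 1.38-fold higher. The XPA call was lost without resistant replicate 1 (adjusted p = 0.0625, the top of a range from 6.38e-07) and held in the other alternatives.

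The single-strand binding complex RPA, which coats the undamaged strand and also serves replication, did not rise beside XPA. RPA2 fell from 3539 and 3139 to 2093 and 2279 (log2 fold change -0.61 ± 0.09, adjusted p = 0.0014) and was called in each of its alternatives. RPA1 had values of 4619 and 4626 against 3664 and 3993 (log2 fold change -0.27 ± 0.08, adjusted p = 0.0236), a call lost in 5 of 14 alternatives, with adjusted p up to 0.183 without resistant replicate 1. RPA3 gave a log2 fold change of -0.0068 (adjusted p = 0.974), whose sign changed with the scaling: it was 0.088 with equal totals. RPA1 overlaps SMYD4 on the other strand, which read 1251 and 1227 in parental cells against 935 and 949 in resistant cells.

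The cuts on either side of the lesion are made by ERCC5 (XPG), on the 3′ side, and by ERCC4 (XPF) with its partner ERCC1, on the 5′ side. ERCC5 rose while the genes of the other nuclease gave no call. ERCC5 (chr13:102807146-102876001, plus strand) rose from 567 and 692 to 999.7 and 1269.5. The resistant libraries were both higher but lay further apart, relative to their mean, than those of any other member, at 629.8 ± 88.4 in parental and 1135 ± 191 in resistant cells (SD, n = 2). The log2 fold change was 0.85 ± 0.14, adjusted p = 0.00323, or 1.80-fold higher. Leaving out a library gave log2 fold changes of 0.67 (without resistant replicate 2) to 1.02 (without resistant replicate 1), each past the threshold.

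The ERCC5 value depends on how fragments were divided at its locus. GENCODE 29 holds a read-through gene there, BIVM-ERCC5, on the same strand, which shares the ERCC5 exons. BIVM-ERCC5 took more fragments than ERCC5 itself, 2167 and 2254 in parental cells against 3795 and 3490.5 in resistant cells, and rose as well (log2 fold change 0.72 ± 0.08, adjusted p = 4.08e-04). BIVM, which starts upstream and overlaps ERCC5 on the same strand, had values of 594 and 922 against 1001 and 1086. The BIVM groups were apart, but it gave no call (log2 fold change 0.49 ± 0.20, adjusted p = 0.0997).

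Summed before the fit, an alternative chosen after the data were seen, ERCC5 and BIVM-ERCC5 together rose from 2734 and 2946 to 4795 and 4760.0. The sum was 1.68-fold higher, with a log2 fold change of 0.75 ± 0.08 and limma adjusted p = 2.77e-04. With BIVM added as well, the mean of all 3 genes together was 1.62-fold higher. The spread between the resistant libraries was far smaller for the sum (SD 24.7) than for ERCC5 alone (SD 191), since replicate 1 was the lower library for ERCC5 and the higher one for BIVM-ERCC5.

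**Figure D2:**
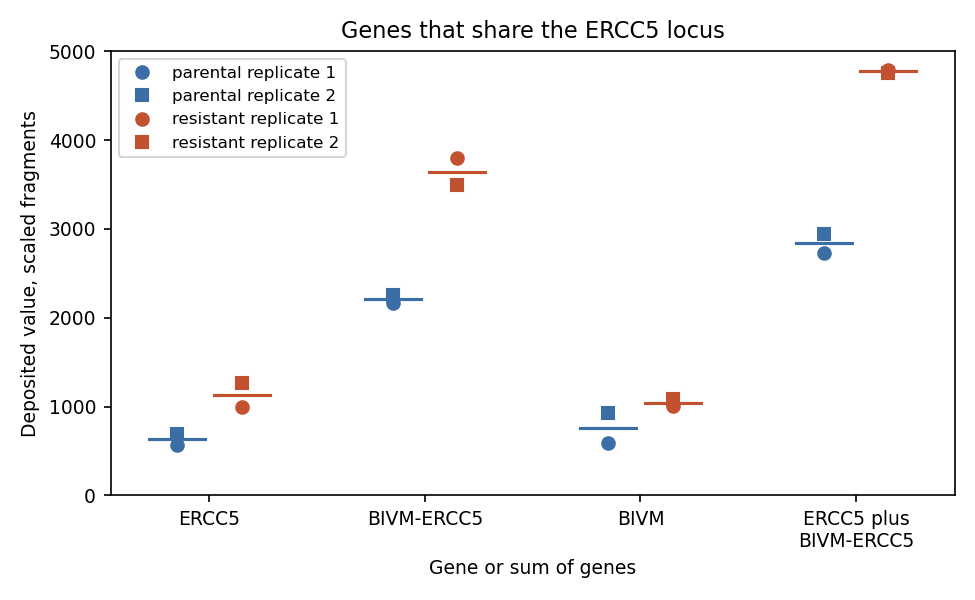
Deposited values (scaled fragments, linear axis from 0) of ERCC5, the read-through gene BIVM-ERCC5, BIVM and the sum of ERCC5 and BIVM-ERCC5 in each library, with a line at each group mean. The resistant libraries of the sum lie at 4795 and 4760.0, above the parental 2734 and 2946.

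ERCC1 (chr19:45407333-45478828, minus strand) read 1348 and 1583 in parental cells and 1529 and 1672 in resistant cells. The groups overlapped, and the log2 fold change was 0.13 ± 0.10, adjusted p = 0.361. ERCC4 (chr16:13920157-13952345, plus strand) had 906 and 863 against 979.7 and 928. Its resistant libraries both lay above its parental ones, but the difference was small and gave no call (log2 fold change 0.11 ± 0.09, adjusted p = 0.397). ERCC1 overlaps CD3EAP, a subunit gene of RNA polymerase I, on the other strand. CD3EAP fell from 1682 and 1402 to 753 and 797 (log2 fold change -0.99 ± 0.11, adjusted p = 3.94e-04). The library kit keeps strand, but no source used here gives the strand setting of the counting, so how far CD3EAP enters the ERCC1 value was not tested.

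Of the 7 genes listed for damage verification and incision, 2 were higher (XPA and ERCC5), 2 lower (RPA1 and RPA2) and 3 not called, with a median log2 fold change of 0.11. The steps from recognition to incision thus held changes in both directions, as did all genes tested, of which 16.2% were higher and 20.9% lower. Nothing particular to these steps is read from their counts.

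The gap left by the cuts is filled by the clamp PCNA, its loader RFC and DNA polymerases delta and epsilon, and sealed by a ligase. These proteins are shared with chromosome replication, so the list does not stand for excision repair alone. Of its 18 genes, all tested, 12 were lower, 1 was higher and 5 (POLD1, POLD2, POLK, LIG3 and XRCC1) were not called, with a median log2 fold change of -0.42. Over all genes tested, 20.9% were lower and 16.2% higher, with a median of -0.018. PCNA fell from 3551 and 3407 to 1926 and 1903 (log2 fold change -0.86 ± 0.08, adjusted p = 1.63e-04). POLE2, a subunit of polymerase epsilon, had 233 and 217 against 123 and 104, the lowest fold change of the list (-0.98 ± 0.17, adjusted p = 0.00263). POLD4, the smallest subunit of polymerase delta, went the other way, at 151 and 177 against 343 and 486, or 2.49-fold higher (1.31 ± 0.19, adjusted p = 0.00129).

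The other 10 lower genes of gap filling fell by less than PCNA. RFC2, RFC4 and RFC5 of the clamp loader had log2 fold changes of -0.61, -0.44 and -0.64, and POLD3 of polymerase delta one of -0.78, and these 4 were called in each of their alternatives, as were PCNA, POLE2 and POLD4. RFC1 (-0.25), RFC3 (-0.53), POLE (-0.58), POLE3 (-0.30), POLE4 (-0.61) and the ligase LIG1 (-0.40) lost the call in at least 1. The least firm was RFC1, whose call was lost in 6 of 14, with adjusted p up to 0.302 without resistant replicate 2. Overlaps in this list include EIF4A2 for RFC4, WSB2 for RFC5 and RAD9A for POLD4, each on the other strand. RFC3 overlaps AL161891.1 on the same strand, which read 260 and 316 in parental cells against 163 and 148 in resistant cells. The part of these overlaps in the values was not tested.

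Among 4 partner genes, MMS19, which helps place the iron–sulphur cluster of ERCC2, was higher, at 2852 and 2921 against 3923 and 3709.6 (log2 fold change 0.40 ± 0.08, adjusted p = 0.00406). That call was lost without the trend and robust steps (adjusted p = 0.0520, the top of a range from 1.33e-08), and SLX4, CIAO1 and CIAO2B gave none. Over the 56 genes listed for all steps, members included, 54 were tested, 8 were higher and 17 lower. Of all 16132 genes tested, 16.2% were higher and 20.9% lower. With libraries scaled to equal totals the counts of listed genes were 10 and 12, and those of all genes 3665 and 2773. Leaving out the 9 members and the gap filling list, 27 tested genes remained, 4 of them higher, 3 lower and 20 not called, with a median log2 fold change of 0.010. Of the 17 lower calls, 12 were in gap filling.

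**Figure D3:**
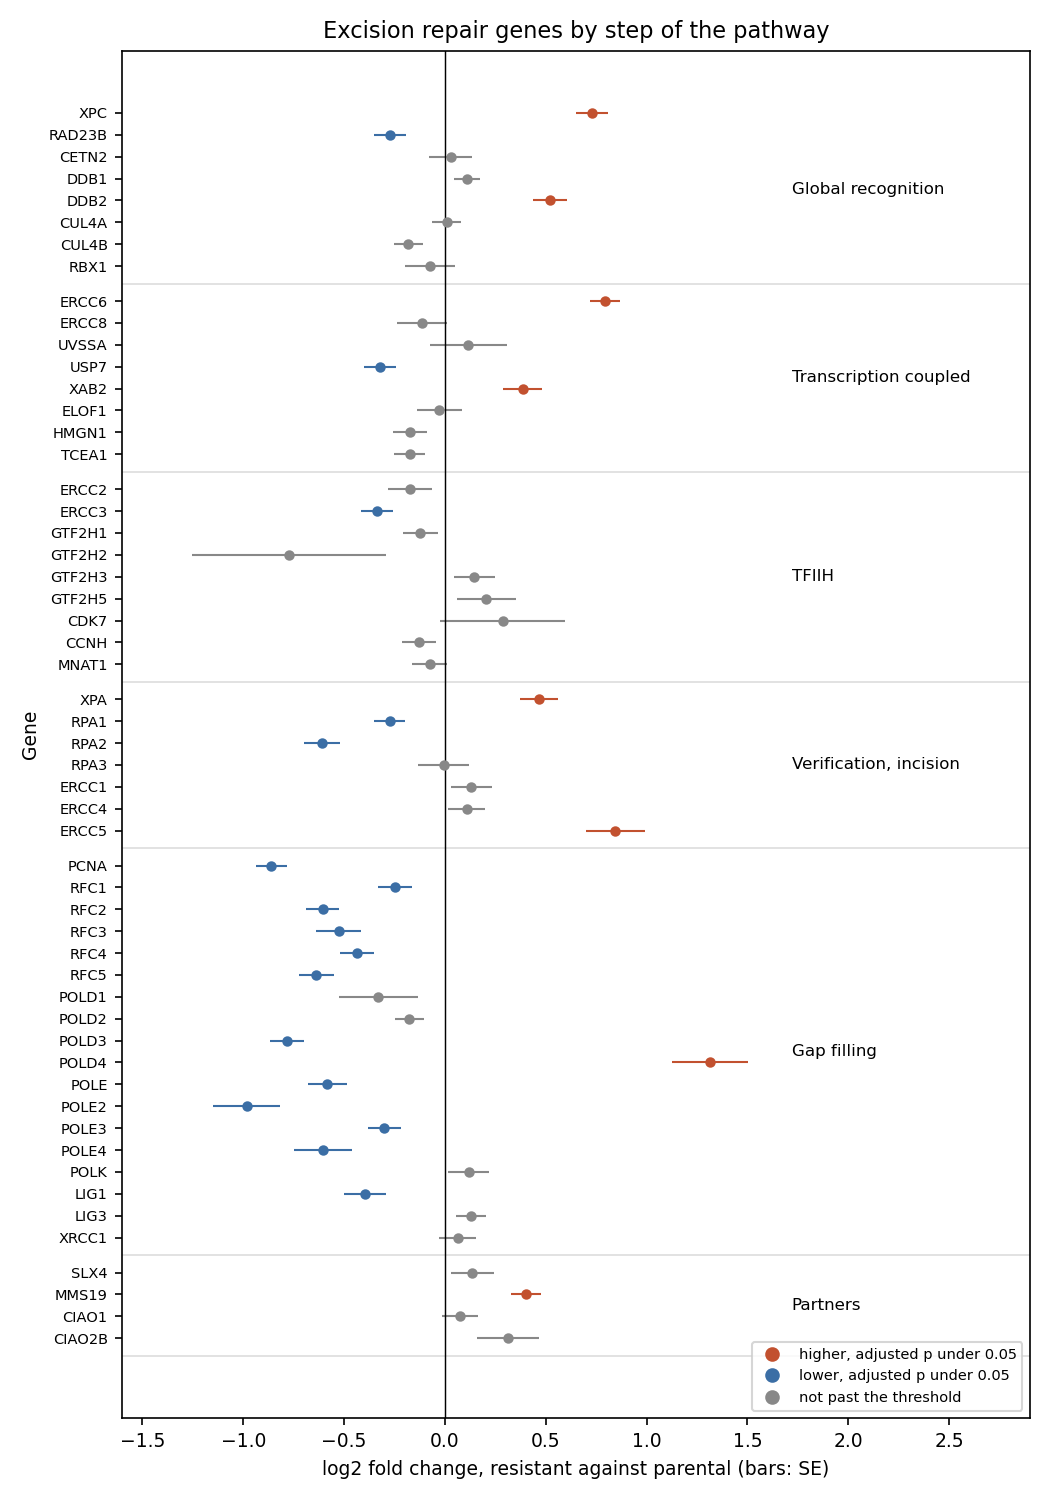
Fitted log2 fold change of resistant against parental cells (horizontal axis, bars show the SE) for the 54 tested genes of the pathway, ordered by step, in red where higher and blue where lower at an adjusted p under 0.05 and grey otherwise. Blue points gather in gap filling, where 12 of 18 genes were lower, while the earlier steps hold red and blue points. Of all genes tested, 16.2% were higher and 20.9% lower.

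Levels can be set beside each other only per length, here the deposited value per kilobase of annotated exon. In parental cells the group means ran from RAD23B at 3106 through ERCC2 at 464, XPA at 366, ERCC3 at 323, ERCC1 at 263, ERCC6 at 113, ERCC4 at 105 and ERCC8 at 84.0 to ERCC5 at 76.4. ERCC8 and ERCC5 overlapped between libraries, and the other neighbours in this order did not. In resistant cells the order was RAD23B at 2577, XPA at 505, ERCC2 at 411, ERCC1 at 287, ERCC3 at 256, ERCC6 at 196, ERCC5 at 138, ERCC4 at 113 and ERCC8 at 77.3, with no overlap between neighbours. XPA moved above ERCC2, ERCC1 above ERCC3, and ERCC5 from last to seventh place. The place of ERCC5 counts only the fragments assigned to it, not the larger value of BIVM-ERCC5, which shares its exons. Annotated exons include those of rare transcripts, so genes with many transcripts are set low on this scale.

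Ratios of partner genes within a library do not change with library scaling. The ratio of ERCC6 to ERCC8 rose 1.88-fold, from 3.82 and 4.48 to 7.58 and 7.97. The ratio of RAD23B to XPC went the other way, from 9.05 and 8.85 to 4.29 and 4.66, a fall of 2.00-fold. Both ratios shifted by more than the spread between libraries of a group.

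The pairs of the later steps shifted less. The ratio of ERCC1 to ERCC4 was 1.49 and 1.83 in parental cells against 1.56 and 1.80 in resistant cells, and that of ERCC2 to ERCC3 was 0.965 and 1.24 against 1.16 and 1.30. For both pairs the groups overlapped, with log2 differences of 0.022 and 0.16. The sign of either difference turned on leaving out a library, over -0.13 to 0.17 for ERCC1 to ERCC4 and -0.020 to 0.35 for ERCC2 to ERCC3. The log2 ratio of XPA to ERCC5 went from 0.22 and -0.022 to -0.074 and -0.49, apart by a narrow margin. It counts only the fragments assigned to ERCC5, not those of BIVM-ERCC5. DDB2 to DDB1 was also apart, with a log2 difference of 0.41. With 2 libraries against 2, an exact two-sided permutation test cannot go below p = 0.333, the value for each pair whose groups were apart, so these are descriptions.

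**Figure D4:**
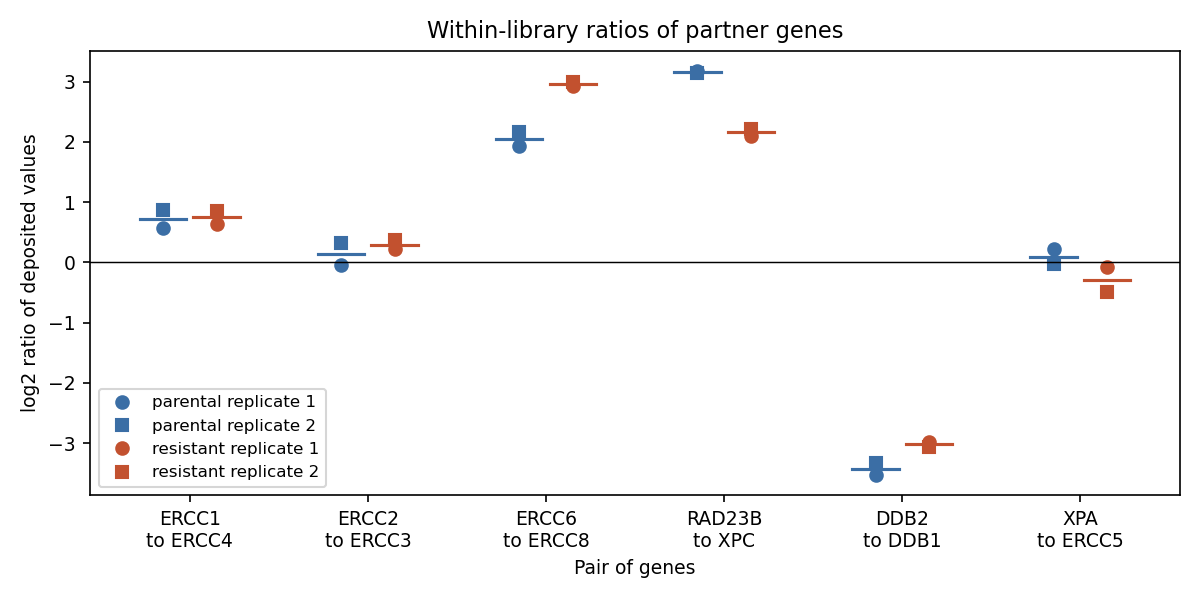
log2 ratio of the deposited values of partner genes in each library (circles replicate 1, squares replicate 2; blue parental, red resistant; lines at group means). ERCC6 to ERCC8 sits higher in both resistant libraries and RAD23B to XPC lower, by 1.88-fold and 2.00-fold, while ERCC1 to ERCC4 and ERCC2 to ERCC3 overlap.

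The members lie on 7 chromosomes, and for each the coding genes tested within 2 Mb give a local background. Over all 13313 coding genes tested, 15.9% were higher and 23.8% lower, with a median log2 fold change of -0.039. XPA, on chromosome 9, was set among genes of which 14 of 27 were higher and 3 lower, with a median of 0.32 beside its own 0.46. ERCC6, on chromosome 10, was set among genes of which 2 of 17 were higher and 3 lower, with a median of -0.14 beside its own 0.79. XPA thus moved the same way as its neighbours, and ERCC6 stood apart from its own.

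ERCC5 had 8 neighbours, 3 of them higher and 1 lower, with a median of 0.29 that includes the genes of its own locus. RAD23B, the other member on chromosome 9, was lower among neighbours with a median of 0.13. ERCC3 had 14 neighbours, 5 of them lower, with a median of -0.089. ERCC1 and ERCC2 lie close together on chromosome 19 and share most neighbours, with medians of 0.10 and 0.11, while their own values were 0.13 and -0.17. XPC and DDB2 were higher among neighbours with medians of -0.00022 and -0.082, and MMS19 was higher among neighbours of which 20 of 33 were higher, with a median of 0.55. The part of a gene's surroundings in its value was not tested.

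**Figure D5:**
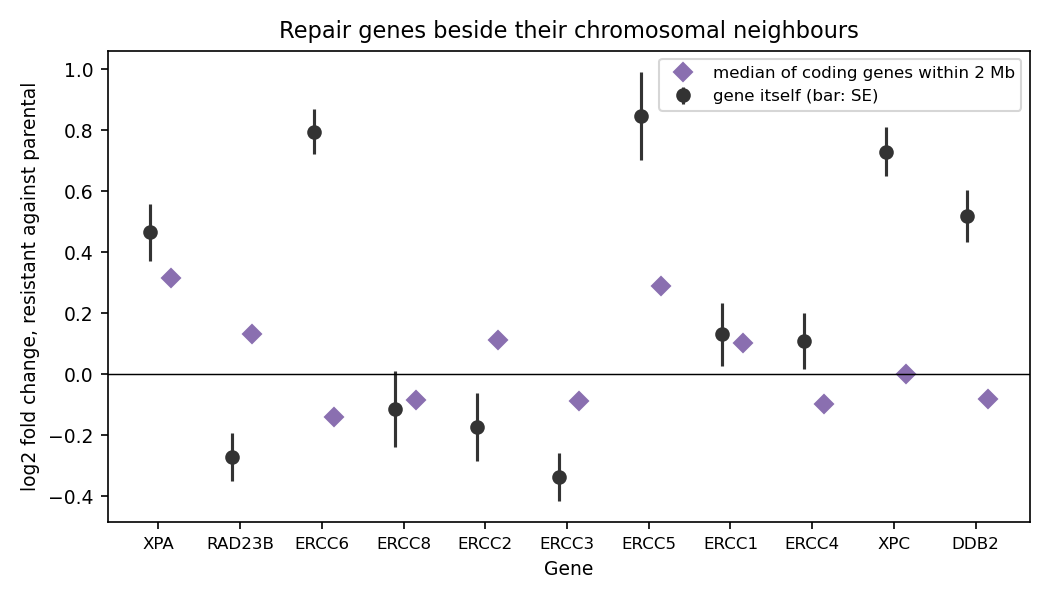
Fitted log2 fold change of each member, XPC and DDB2 (black, bars show the SE) beside the median of the coding genes tested within 2 Mb (purple). XPA at 0.46 lies near its neighbours' 0.32, whereas ERCC6 at 0.79 and XPC at 0.73 lie above neighbours at -0.14 and -0.00022.

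The deposited values summed to 24791254 and 25832511 in the parental libraries and to 23163310 and 24225039 in the resistant ones. Both resistant totals lay below both parental ones, and the main fit took the values as deposited. The median log2 fold change of all genes tested was -0.018 in that fit and 0.076 with equal totals. Between the lines 2621 genes were higher and 3370 lower, so that 43.7% of the changed genes were higher; with libraries scaled to equal totals that share was 56.9%, and RAD23B lost its call. The glial markers VIM, NES, CD44, EGFR and SOX9 were present. SLC1A3 (2853 and 3275 against 4312 and 4189), OLIG2 (183 to 237) and PDGFRA (55.8 to 97.1) were detected in every library. GFAP (0 to 2.87), AQP4 (0 to 1.63) and S100B (0.956 to 4.25) were close to absent in this line. SOX2 (2.87 to 10.5) and FABP7 (8.60 to 21.2) were also low. The 13 glial markers, 11 above 0 in every library, summed to 119237 and 126129 in parental cells and to 82122 and 90912 in resistant cells. VIM alone gave 74280 and 81177 against 47407 and 54488 of these sums, so they follow VIM more than the other markers. Of the 9 glial markers tested, 4 were lower, 1 (SLC1A3) was higher and 4 were not called. The 5 epithelial markers, all detected, summed to 18587 and 20478 against 35201 and 36865, with KRT8 and KRT18 called higher and the other 3 not called. Sums of 5 markers each were 1326 to 1536 against 815 to 928 for endothelium, 607 to 667 against 1033 to 1088 for blood cells, 152 to 166 against 262 to 304 for neurons and 7856 to 9874 against 8540 to 10289 for fibroblasts. Only 1 blood cell marker (CD68) and 1 neuron marker (RBFOX3) were called higher, and 3 endothelial markers were called lower. The melanocyte genes MLANA and TYR were at 0 in each library, while DCT read 20.3 to 33.1 and PMEL 2.44 to 17.8. The 4 melanocyte genes summed to 22.8 and 33.4 against 33.9 and 50.9. All of these sums but that of fibroblasts lay apart between the groups, as XPA, ERCC3, ERCC4, ERCC5, ERCC6 and RAD23B did, and their part in the members' values was not tested.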

How the data were processed

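Total RNA of 2 parental and 2 TMZ-resistant libraries was taken with Trizol and made into strand-specific libraries, per the labels' protocols. The submitters' processing notes name bcl2fastq, Trimmomatic 0.36, HISAT2 2.1.0, SAMtools 1.2, Cufflinks 2.2.1 and Cuffdiff with GRCh38.p10. Settings, annotation, scaling and strand rule were not given in the sources used here. Per gene and library, the authors deposited 1 signal value, a scaled number of fragments: 93.8% to 94.3% of values above 0 lay within 0.05 of whole multiples of 1 step per library (0.753 to 0.956), or about 27019137 to 30759939 fragments a library. These are not counts as deposited, so the main fit used no count model. In an alternative, the values divided by each library's step were fitted with limma's voom, and 6082 genes were changed.

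Identifiers were matched to GENCODE 29 (57881 of 58219). Genes with at least 10 in at least 2 libraries and a sum of at least 15 were tested with limma 3.58.1 (R 4.3.3) on log2(deposited value + 1), with trend and robust moderation, group as the only term and Benjamini-Hochberg adjustment over 16132 genes; fold changes on this scale understate the change of low genes. The fit was tested on simulated data. Pathway genes were named by rule: the 9 members and each listed gene that was called. XPC, DDB1, DDB2, RPA1, RPA2, RPA3 and GTF2H4 were named whatever their result. BIVM, BIVM-ERCC5, CD3EAP, GTF2H2 and STK19 were named after their values were seen, for overlap or low values. The other overlapping genes, such as LSM3, EIF4A2 and RAD9A, were also named outside the rule. POLD1, POLD2, POLK, LIG3, XRCC1, SLX4, CIAO1 and CIAO2B were named only as listed genes with no call. 1 listed gene is not reported here and was left out of the lists. The members and lists were chosen with earlier results of these data known. Alternatives covered the pseudocount, filter, scaling, moderation, units, replicate number and each library left out.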

Additional observations from a re-analysis of the deposited data

How the results depend on the processing

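Over 14 alternatives the calls of ERCC5 and ERCC6 held, and no member with a call changed direction. Without limma's trend and robust steps, 3686 genes were changed and 1915 lower, 3 members were changed and 0 lower (1 at an unadjusted p under 0.05), and 14 listed pathway genes were changed and 8 lower. With libraries scaled to equal totals 1 member was lower. Leaving out each library in turn, where the lone library of a group is assumed to vary like the other group, gave 3593 to 5476 genes changed, 1348 to 2783 higher and 2079 to 3147 lower; 2 to 5 members changed and 0 to 2 lower; and 18 to 21 listed genes changed and 11 to 14 lower. The lowest member counts came without resistant replicate 1, where 1 member was lower at an unadjusted p under 0.05. The cause was not tested.

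Signs turned for genes with no call. RPA3 was 0.088 with equal totals, 0.0036 with TMM factors, 0.0088 with median of ratios factors, and ran from -0.092 to 0.079 over libraries left out, above 0 without parental replicate 1 (0.079) or resistant replicate 2 (0.0089). ERCC8 was 0.0033 without parental replicate 1, in a range from -0.23. The log2 difference of the ERCC1 to ERCC4 ratio was -0.13 without parental replicate 1 and -0.081 without resistant replicate 2, and that of ERCC2 to ERCC3 was -0.020 without parental replicate 1, over ranges of -0.13 to 0.17 and -0.020 to 0.35.

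With the replicate number as a block, 8624 genes were changed (3903 higher, 4721 lower), 6 members (ERCC2 also lower, adjusted p = 0.0217 in limma) and 32 listed genes (9 higher, 23 lower). The deviations of same-numbered libraries correlated at 0.27 across 16132 genes, but with 2 pairs and no label that ties the numbers they share only a number, so no pairing is assumed. With 2 libraries a group, small changes of ERCC1, ERCC2, ERCC4 and ERCC8 could be missed. Every member lay at 411 or more in every library, far above the filter of 10. The division of fragments between overlapping genes limits the values of ERCC5 and ERCC1. ERCC8 also overlaps a pseudogene on the same strand, GNL3LP1, which read 70.7 to 91.7, and its part in the ERCC8 value was not tested.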
